A study of Mus musculus with 16 samples.

Results

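FOXD3 is a forkhead transcription factor of pluripotent stem cells and of the neural crest, known as a pioneer factor that binds its sites in closed chromatin and that recruits both activators and repressors. In ATAC-seq, adaptors are placed by a transposase where DNA is open, so that reads gather at promoters, enhancers and other accessible stretches. G2 cells have finished replication and are preparing for mitosis. The data described here are those of G2-sorted mouse embryonic stem cells after FOXD3 depletion, 4 of the 16 libraries of the series.

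All cells were mouse ES cells (mESCs) with the genotype FOXD3-iKO, grown in L2i medium, and were sorted by DNA content with DAPI. The group 4HT_G2 had tamoxifen (4HT), which induced the depletion, and the group EtOH_G2 had ethanol. Both were labelled with 24 h of treatment and had 2 libraries each, which the authors pooled into 1 column per group, so that no value below has an SD. The columns were chosen by their labels, as 2 of the 8 columns in each of 2 tables. The first holds 127646 accessible regions. The second holds 38053 distinct 5000 bp windows centred near transcription start sites (TSSs). The other columns hold the same pair of treatments in the fractions G1, ES and LS, names used as the labels give them. Whether the cells carry other alleles, whether the line is 1 clone and whether the libraries came from separate cultures is not stated.

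The smallest value of each column was taken as the worth of 1 read, and a level below is a multiple of it, with 0 where an interval had no read. The implied depth was 8.87 M reads in 4HT_G2 and 11.2 M reads in EtOH_G2, a ratio of EtOH to 4HT of 1.26. Levels are not corrected for this, whereas the log2 differences below come from the centred signal, so that the 2 can point different ways: the Pou5f1 window had levels of 2.60 in 4HT_G2 and 2.75 in EtOH_G2 and a log2 difference of 0.12. In 4HT_G2, 26.25% of the regions had no read and 32.68% stood at 1 read, against 20.39% and 29.64% in EtOH_G2. The signal is a mean over read bases alone, so it cannot fall below 1 read once an interval is read, and a lower number of open cells and a weaker opening in each cell cannot be told apart. The TSS windows of 8 mESC marker genes had a median level of 1.55 in 4HT_G2 and 2.12 in EtOH_G2, those of 5 fibroblast markers 1.26 and 1.25, and those of 7 genes of G2 and mitosis 1.52 and 2.04, and none of these was at 0. Summed levels were 14.5 and 17.3 for the mESC markers, 6.27 and 6.44 for the fibroblast markers, and 5.51 and 5.73 for 4 primitive endoderm markers. An open promoter does not show that a gene is expressed, so these levels do not settle the identity of the cells.

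Promoter sequences of the windows that the results turn on are shown first, since some of them are repeated in the genome. Each is the 250 bases just upstream of the RefSeq TSS on the plus strand of GRCm38.p6. The Gm13287 stretch lies at chr4:88803004-88803253 and that of its relative Gm13283 at chr4:88760524-88760773, with capitals at the 3 bases that differ between them. The Ifnz stretch lies at chr4:88781881-88782130, with a capital at the base that differs from Gm13278. The Ap1s2 stretch lies at chrX:163908767-163909016 and is shown as a contrast, with its 30 CG dinucleotides in capitals.
Gm13287: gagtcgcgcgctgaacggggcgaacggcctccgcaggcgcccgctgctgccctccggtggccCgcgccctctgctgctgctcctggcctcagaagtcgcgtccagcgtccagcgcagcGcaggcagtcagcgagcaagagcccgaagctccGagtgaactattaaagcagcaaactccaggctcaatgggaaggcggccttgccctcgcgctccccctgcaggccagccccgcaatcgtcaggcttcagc
Gm13283: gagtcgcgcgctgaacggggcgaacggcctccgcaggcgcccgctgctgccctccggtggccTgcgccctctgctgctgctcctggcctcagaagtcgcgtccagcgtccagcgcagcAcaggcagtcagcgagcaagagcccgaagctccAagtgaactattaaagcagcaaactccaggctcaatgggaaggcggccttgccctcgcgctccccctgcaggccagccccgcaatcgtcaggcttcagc
Ifnz: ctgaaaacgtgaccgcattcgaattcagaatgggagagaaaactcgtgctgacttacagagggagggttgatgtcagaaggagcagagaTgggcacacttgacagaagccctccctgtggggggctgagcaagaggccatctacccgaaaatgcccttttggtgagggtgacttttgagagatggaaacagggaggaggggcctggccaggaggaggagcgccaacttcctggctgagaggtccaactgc
Ap1s2: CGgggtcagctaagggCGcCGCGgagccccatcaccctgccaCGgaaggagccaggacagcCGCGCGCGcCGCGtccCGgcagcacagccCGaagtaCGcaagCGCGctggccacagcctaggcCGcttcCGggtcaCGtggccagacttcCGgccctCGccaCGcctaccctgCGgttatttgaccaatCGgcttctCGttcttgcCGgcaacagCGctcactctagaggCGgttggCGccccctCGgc
The Gm13287 stretch was identical, base for base, to those of Gm13285 and Gm13272. It matched that of Gm13283 at 247 of 250 bases. No other promoter in the table was at least 90% identical to that of Ap1s2.

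The first question was whether any window or region differed between 4HT_G2 and EtOH_G2 by more than the treatment differences vary in the other fractions. A limma model on log2(signal + 0.1), centred across the 8 columns, gave the treatment its own term in G2 and 1 shared term in G1, ES and LS. It has 2 residual degrees of freedom, and its p-values assume that G2 columns vary like the others and reflect how pooled columns vary, with no view of variation between cultures. Of 15323 windows tested, 2 rose (0.0131%) and 0 fell at a Benjamini-Hochberg adjusted p of 0.05 in limma. Tested windows had a mean level of at least 1.3 over the 8 columns. Both windows that rose met this minimum only through their level in 4HT_G2, so the value under test also admitted them. Of 11010 regions tested, 0 rose and 0 fell, and the smallest limma adjusted p was 0.644, which does not show that the regions did not differ. At an unadjusted p of 0.05, limma gave 679 windows (4.43%), 358 of them higher and 321 lower, and 486 regions (4.41%), 246 higher and 240 lower.

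The window of Gm13287, a predicted gene of the interferon zeta family on chromosome 4 (88800605 to 88805604), had a level of 3.15 in 4HT_G2 and 1.23 in EtOH_G2. Its levels in G1, ES and LS were 1, 1 and 1.503 with 4HT, against 1.16, 1.40 and 1.65 with EtOH. The G2 level with 4HT was thus the highest of its 8 columns. Its log2 difference in G2 was 1.01 (SE 0.16, limma adjusted p = 0.0180), a 2.01-fold rise on the log2(signal + 0.1) scale. The difference in G2 exceeded that in the other fractions by 1.19 on the log2 scale (SE 0.19, limma adjusted p = 0.0174), and this was the only window of 15323 (0.00653%) for which that interaction passed the threshold. Both calls were lost without centring, without the filter on level, with a higher minimum level and with plain moderation (neither robust nor trended). In these settings the limma adjusted p of the G2 difference was 0.9999, 0.0666, out of the tested set and 0.266.

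The other window that rose is centred near n-R5s88, named as a nuclear 5S ribosomal RNA gene. This window lies on chromosome 9 (102125239 to 102130238) inside the span of Ephb1, an ephrin receptor gene. It had a level of 2.89 in 4HT_G2 and 1.29 in EtOH_G2. In G1, ES and LS it stood between 1 and 1.19 with 4HT and between 1 and 1.10 with EtOH. The log2 difference in G2 was 0.86 (SE 0.14, limma adjusted p = 0.0180), and its interaction with the other fractions missed the threshold at 0.88 (SE 0.16, limma adjusted p = 0.116). The call was lost under the same settings as that of Gm13287, and also with a pseudocount of 0.02 (limma adjusted p = 0.0620). The 1 deposited accessible region that touches this window (102130199 to 102130401) overlaps only its edge and lies mostly beyond its end. This region was not read in 4HT_G2 and had a level of 1.62 in EtOH_G2, so the higher window signal lies outside it. The RefSeq table lists 69 genes of this name series. Their sequences were not compared here, nor was it measured where in the window the reads fall.

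**Figure D1:**
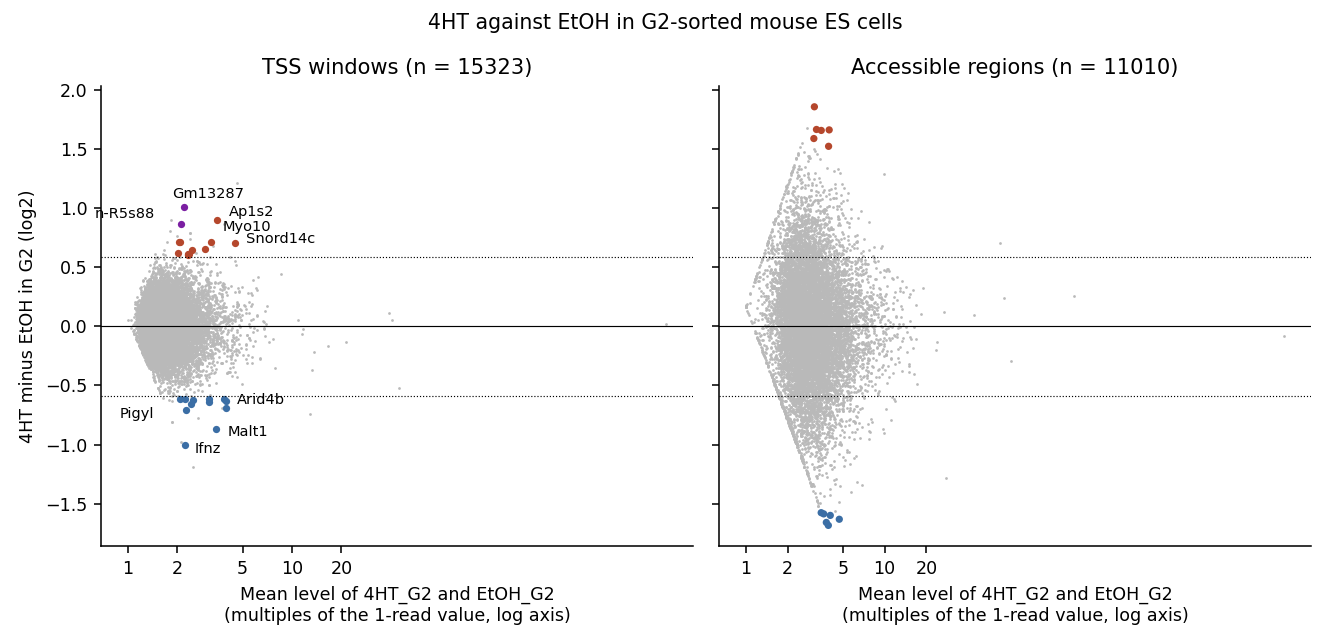
Difference between 4HT and EtOH in G2 (log2, vertical) against the mean level of both columns (multiples of the 1-read value, log axis) for 15323 TSS windows (left) and 11010 accessible regions (right). Purple points are the 2 windows that passed the limma threshold, red and blue points the other named intervals with higher and lower levels in 4HT_G2, dotted lines mark 1.5-fold. Windows spread less than regions, and no region passed the threshold.

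The interferon zeta family holds type I interferon genes that sit as near-identical copies in a cluster on mouse chromosome 4. It had 14 TSS windows between positions 88758125 and 88807881, of which 9 were read in 4HT_G2 and 11 in EtOH_G2. Of the 6 that were tested, 3 were past 1.5-fold higher and 3 past 1.5-fold lower in G2. The higher ones were the window of Gm13287 and both windows of Gm13285, which overlap it and had the same level of 3.15 in 4HT_G2, against 1.62 in EtOH_G2 (0.79, SE 0.16, limma adjusted p = 0.107). The 3 windows overlap and had the same 4HT_G2 level, so they are not independent observations, although their EtOH_G2 levels differ.

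The lower windows of the family were those of Gm13283, Gm13272 and Ifnz, none of which passed the threshold. Gm13283 stood at 1 in 4HT_G2 and 2.73 in EtOH_G2, a log2 difference of -0.81 (SE 0.17, limma adjusted p = 0.145). Ifnz, the interferon zeta gene, stood at 1 in 4HT_G2 and 3.42 in EtOH_G2, a log2 difference of -1.001 (SE 0.26, limma adjusted p = 0.506), and the overlapping window of Gm13272 had the same 2 levels. Windows with higher and with lower levels thus lay within 1 cluster, and the promoters of the lower Gm13272 and Gm13283 are identical or nearly so to that of the higher Gm13287. The 3 higher windows share positions 88800605 to 88802670, and the Gm13287 promoter, which starts at 88803004, lies beyond that stretch. Where in the windows the reads fall was not measured. Which copy a read came from is uncertain and was not tested. The deposited table holds 1 accessible region in the whole span.

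**Figure D2:**
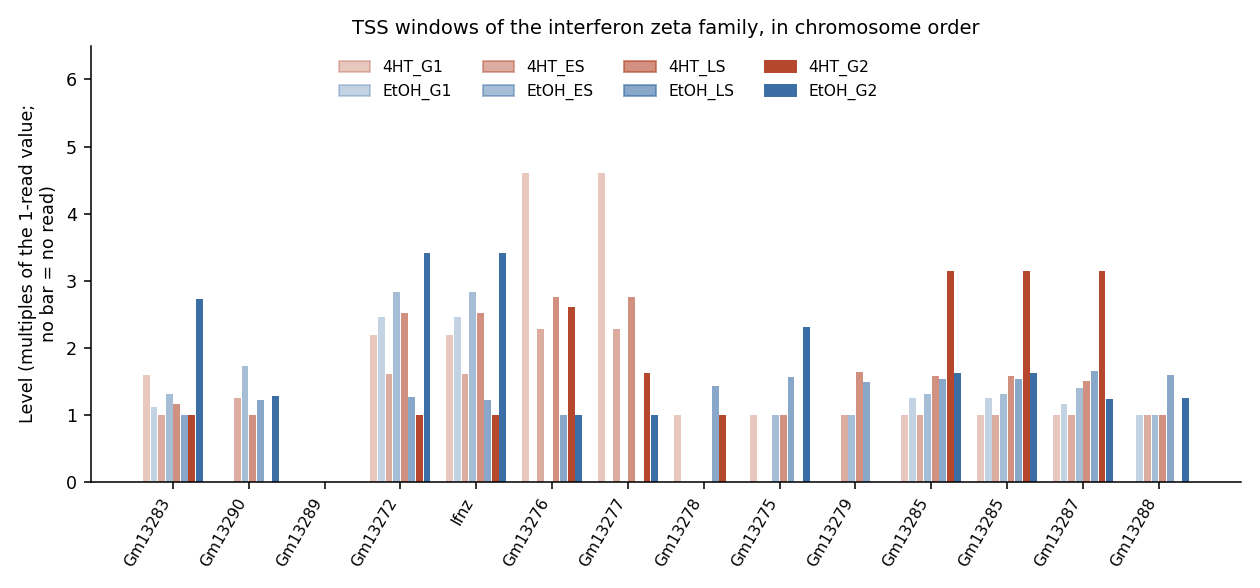
Level of the 14 TSS windows of the interferon zeta family in the 8 columns (multiples of the 1-read value, no bar where there was no read), with 4HT in red left of EtOH in blue for G1, ES, LS and G2. The G2 column with 4HT is the highest at Gm13285 and Gm13287 (3.15), and that with EtOH at Gm13283, Gm13272 and Ifnz (2.73 to 3.42).

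Beyond the called windows, the size of the differences was described with a line at 1.5-fold. In G2, 31 windows were higher (0.202%) and 26 lower (0.170%) in 4HT past it, 57 in all (0.372%). The same count was 87 (0.568%) in G1, 61 (0.398%) in ES and 80 (0.522%) in LS. Without centring the G2 split was 85 higher and 12 lower, with a median difference of all windows of 0.10. Of the regions, 1077 were higher (9.78%) and 1037 lower (9.42%) in G2, 2114 in all (19.2%), against 2345 (21.3%) in G1, 2132 (19.4%) in ES and 2273 (20.6%) in LS. The SD of the log2 differences was 0.18 over windows and 0.46 over regions in G2, and between 0.18 and 0.19 and between 0.45 and 0.48 in the other fractions. G2 thus ranked below the other fractions in the counts past 1.5-fold, by margins that have no replicate check.

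The windows furthest from 0 in G2 with a named gene and a mean G2 level of at least 2 are given next, as the 12 highest and 12 lowest of 2514. None passed the threshold apart from n-R5s88. At the top was Ap1s2, which encodes a small subunit of the AP-1 clathrin adaptor, with 4.56 in 4HT_G2 and 2.39 in EtOH_G2 (log2 difference 0.90). The accessible region within it had 4.56 in 4HT_G2 and 3.77 in EtOH_G2, a smaller log2 difference of 0.52. The EtOH_G2 value of the window thus lies below that of its region, and the 4HT_G2 values are the same. In its other fractions the window stood between 1.48 and 2.40 with 4HT and between 1.998 and 2.27 with EtOH, so 4HT_G2 was its highest column.

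Next came Dph5, an enzyme of diphthamide synthesis, whose 2 overlapping windows both differed by 0.71 on the log2 scale (2.70 in 4HT_G2 and 1.47 in EtOH_G2 for one of them). Myo10, an unconventional myosin of filopodia, had 3.98 in 4HT_G2 and 2.46 in EtOH_G2 (0.71). Snord14c, a small nucleolar RNA gene within Hspa8, had 5.37 and 3.57 (0.70), and its 4HT level in LS, 5.76, was higher still. Ccnt2, a cyclin of the elongation factor P-TEFb, had 3.59 in 4HT_G2 and 2.29 in EtOH_G2 (0.66). The list was completed by Ipmk, an inositol phosphate kinase, Megf9, the cilium gene Bbs2, Wfs1 of the endoplasmic reticulum and the splicing factor gene Srsf5, with differences of 0.60 to 0.64. The accessible regions inside these windows pointed the same way, with log2 differences of 1.14 for Dph5, 0.97 for Myo10, 0.99 for Ccnt2 and 1.08 for Wfs1, and with 0.27 for Snord14c. Those reads are part of the window's reads and are no separate evidence.

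At the low end, after Ifnz, stood Malt1, a protease of NF-kappaB signalling, with 1.91 in 4HT_G2 and 5.01 in EtOH_G2 (log2 difference -0.86). Pigyl had 1.31 in 4HT_G2 and 3.19 in EtOH_G2 (-0.71). Arid4b, a subunit of Sin3 histone deacetylase complexes, had 2.45 in 4HT_G2 and 5.41 in EtOH_G2 (-0.69), but 4.87 with 4HT in LS, against 2.86 with EtOH. Stard4, a cholesterol transport gene, had 1.49 in 4HT_G2 and 3.35 in EtOH_G2 (-0.66). Etfdh, of mitochondrial electron transfer, had 2 overlapping windows at -0.64 and -0.61. Tle4, a Groucho corepressor, Phf20, the sodium pump gene Atp1b3, Med23 of the Mediator complex and Pgk1, of glycolysis, lay between -0.63 and -0.61. The accessible regions within had differences of -1.29 in Pigyl, -1.18 in Atp1b3 and -0.9999 in Med23, and a smaller one of -0.17 in Pgk1.

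**Figure D3:**
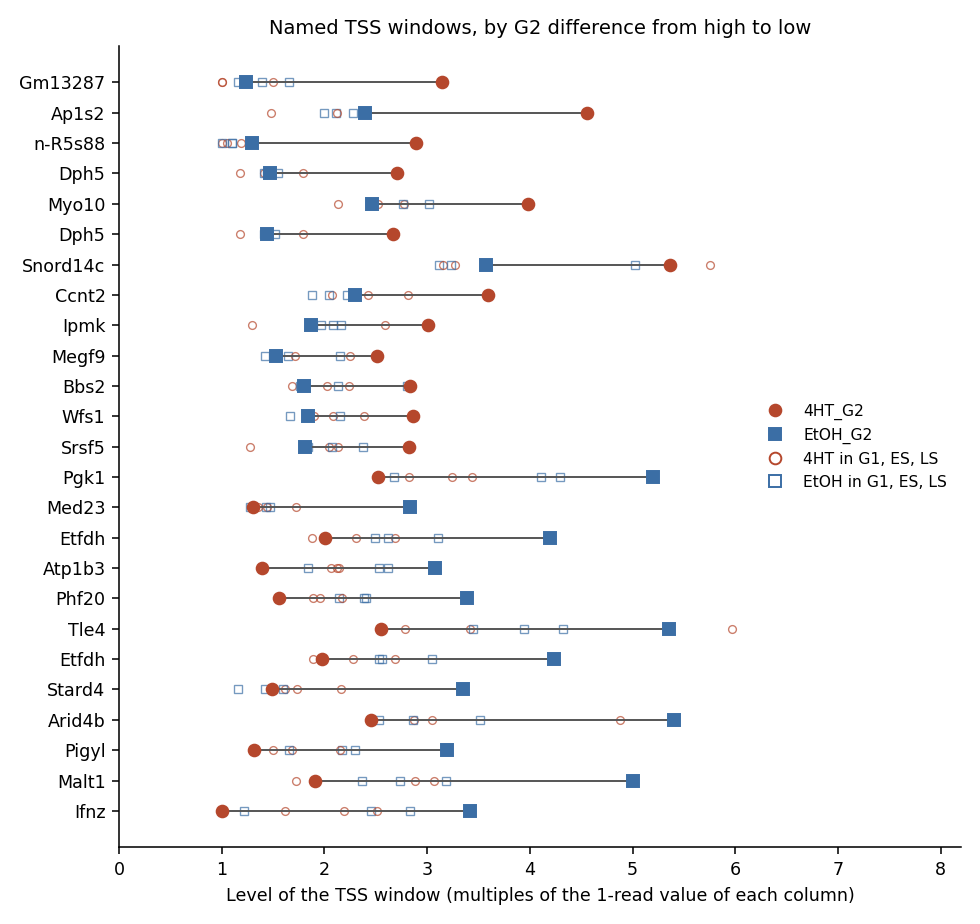
Level of each named TSS window (multiples of the 1-read value of its column), with 4HT_G2 as filled red circles, EtOH_G2 as filled blue squares and the columns of G1, ES and LS as open symbols. Upper rows have higher levels in 4HT_G2 (Gm13287 at 3.15 and 1.23) and lower rows higher levels in EtOH_G2 (Ifnz at 1 and 3.42); the open symbols of both treatments overlap in most rows.

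The windows furthest apart in G2 were then followed in the other fractions, which the choice did not use as such although all columns were centred together. The 31 higher windows had median differences of 0.03 in G1, -0.04 in ES and -0.01 in LS, with 16, 13 and 15 of them above 0. The 26 lower windows had medians of 0.07, -0.04 and 0.03, with 16, 10 and 15 above 0. Of 93 cases (31 windows in 3 fractions), 1 was past 1.5-fold in the same direction as in G2 and 1 in the opposite one, and of 78 cases for the lower windows 4 and 1. The regions behaved alike: the 1077 higher ones had medians of -0.02, 0.02 and 0.01, and the 1037 lower ones -0.03, 0.01 and -0.02. Over all 15323 windows, 120 of 45969 such cases (0.261%) were past 1.5-fold in the direction of the G2 difference and 108 (0.235%) in the opposite one. The 4 cases of the lower windows (5.13%) are a larger share. So are their 1 opposite case (1.28%) and the 1 case each way of the higher windows (1.08% each). The 4 cases come from 3 windows: Gm21560 on chromosome 14 (-0.61 in G2, -0.71 in G1 and -0.73 in ES) and the overlapping windows of Gm13272 and Ifnz (-0.63 each in ES). The medians near 0 thus hold for most of the windows and not for each of them. The limma interaction passed the threshold for Gm13287 alone.

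**Figure D4:**
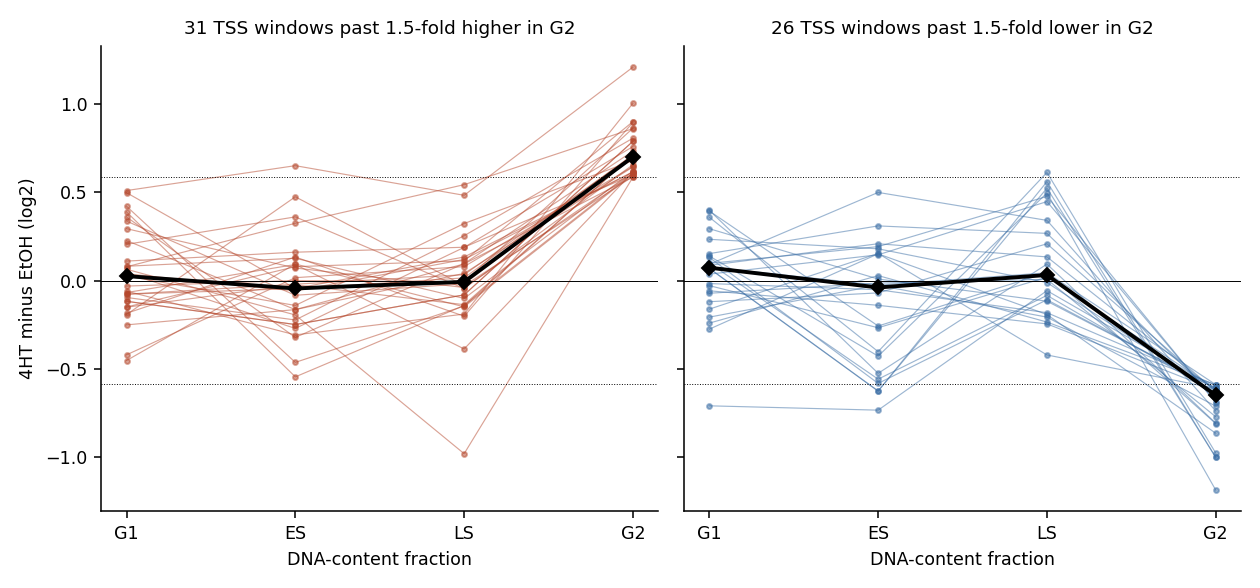
Difference between 4HT and EtOH (log2) in G1, ES, LS and G2 for the 31 TSS windows past 1.5-fold higher in G2 (left) and the 26 past 1.5-fold lower (right), chosen by their G2 values. Thin lines are windows, the black line joins the medians, which lie between -0.04 and 0.07 in the 3 other fractions.

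The regions furthest apart were taken from 4901 with a mean G2 level of at least 3, and none of them passed the threshold. The highest lay on chromosome 7 (24770315 to 24770440), 6727 bp from Ceacam10, with 5.23 in 4HT_G2 and 1 in EtOH_G2, a log2 difference of 1.86 (SE 0.53, limma adjusted p = 0.9995). A region inside Sik2, a salt-inducible kinase gene, on chromosome 9 (50981863 to 50982232) had 5.17 and 1.28 (1.66). The lowest lay inside Gas2l1 on chromosome 11 (5061823 to 5062252), with 1.05 in 4HT_G2 and 6.81 in EtOH_G2, a log2 difference of -1.68 (SE 0.44, limma adjusted p = 0.9995). Of the 6 lowest, the one on chromosome 13 (21170252 to 21170392) covers the transfer RNA gene n-TLaag5, with 1.02 in 4HT_G2 and 6.57 in EtOH_G2 (-1.66). Another, on chromosome 5 (125408859 to 125409097), covers the transfer RNA gene n-TDgtc14, with 1.06 and 6.22 (-1.59). The region at the Sphk2 start, which also touches Rpl18, stood at 1 in 4HT_G2 and 5.98 in EtOH_G2 (-1.58). In each of these 12 regions the lower of both columns stood at a level of 1.89 or less, close to that of 1 read.

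Most regions were too weak for that test, and they were counted by presence. In G2, 14360 regions were read in 4HT only, 21830 in EtOH only, 79783 (62.5%) in both and 11673 (9.14%) in neither. EtOH held 60.3% of the regions read in 1 column only (95% exact binomial interval 59.8 to 60.8, counting error only), a ratio of 1.52 to 4HT at a depth ratio of 1.26. In G1 the same ratios of EtOH to 4HT were 1.92 and 1.47, in ES 0.791 and 0.860, and in LS 0.591 and 0.738. In each of the 4 fractions the deeper column held more of the regions read under 1 treatment only, and the part of FOXD3 depletion in the G2 count cannot be told apart from depth. At a level of at least 2 the counts were 652 in 4HT_G2 only and 1618 in EtOH_G2 only (71.3% in EtOH). The EtOH share at that level was 81.6% in G1, 34.3% in ES and 22.8% in LS, again with more in the deeper column.

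The regions read only in 4HT_G2 were read in 62.2% of cases in the 4HT columns of the other fractions and in 61.6% in the EtOH columns. Those read only in EtOH_G2 gave 63.7% and 63.1%, and all regions 74.4% and 74.2%. A region seen under a single treatment in G2 was thus seen about as often with either treatment elsewhere. Both sets were narrower, with median widths of 191 and 196 bp against 252 bp for all regions, and fewer lay within 1 kb of a TSS (6.59% and 7.16% against 15.01%, chromosome 18 not included).

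The region of highest level read in 4HT_G2 only lay 2707 bp from Bahd1 on chromosome 2 (118897487 to 118897629), at 4.59, and it was read with 4HT in the 3 other fractions (1.38, 3.87 and 1), against 0, 2.31 and 1 with EtOH. It was followed by a region 1580 bp from Cep55, an abscission gene, at 4.49, and by regions inside Dennd2a and Slc12a9, at 4.24 and 4.18. In EtOH_G2 only, the highest lay 169 bp from Zfp442 on chromosome 2 (150451670 to 150451923), at 5.37, and in the other fractions it stood at 2.33, 1 and 2.13 with 4HT and at 3.48, 2.45 and 1 with EtOH. It was followed by a region inside Pfkfb4, a regulator of glycolysis, at 4.85, and by regions 182997 bp from Slc24a2 and 17179 bp from Wnt7b, at 4.82 and 4.77. For these regions no fold is given, as the signal has no value where no read fell.

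The gene that is depleted was looked at by its own promoter. The Foxd3 window on chromosome 4 (99653650 to 99658649) had 1.495 in 4HT_G2 and 1.23 in EtOH_G2, a log2 difference of 0.25 (SE 0.17, limma adjusted p = 0.9999). In the other fractions its differences were 0.19, -0.11 and 0.08. A region over the gene (99657277 to 99657563) had 1.31 in 4HT_G2 and 1.94 in EtOH_G2, and a neighbouring one (99657631 to 99658063) had 1.35 and 1.41. The region 170 bp from the TSS was not read in 4HT_G2 and stood at 1 in EtOH_G2. Since ATAC-seq does not measure the transcript or the protein, and the deleted stretch is not stated, these values do not check the depletion.

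Pathway genes were read from 20 lists with 402 entries, of which 354 had a window and 275 (267 genes) were tested. None of the 275 passed the limma threshold, with 0.0131% called among all windows, and none was past 1.5-fold, with 0.372% past it among all windows. At an unadjusted p of 0.05 limma gave 9 entries (3.27%, against 4.43% of all windows), 5 higher and 4 lower. These shares are near those of all windows. The list medians ran from -0.11 to 0.05 on the log2 scale, and 6 of the 20 lay above 0, where the median of all windows was 0.00.

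Genes of G2 and mitosis, which bear on the fraction itself, had a median of -0.09, with 12 of 31 tested windows above 0. Within the list Top2a, the topoisomerase that decatenates chromosomes, was highest with 1.94 in 4HT_G2 and 1.20 in EtOH_G2 (0.52), and Cenpf, a kinetochore protein gene, was lowest with 1.46 and 2.58 (-0.40). Ccnb1, which encodes cyclin B1, had a log2 difference of 0.02 and Cdk1, its kinase, of 0.05. For genes of S phase the median was 0.05 and 15 of 24 lay above 0, from Gins4 at -0.43 to Mcm6, a helicase subunit, at 0.42. Replication-dependent histone genes had a median of -0.08 with 6 of 25 above 0, and the highest was H2bc12 with 1.90 in 4HT_G2 and 1.21 in EtOH_G2 (0.48). The histone median was -0.14 in ES and 0.03 in both G1 and LS.

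Naive pluripotency genes had a median of -0.05, with 5 of 15 above 0. The highest was Zfp42 (Rex1) with 2.78 in 4HT_G2 and 2.29 in EtOH_G2 (0.37), and the lowest was Tfcp2l1 with 1.27 and 2.31 (-0.42). Pou5f1 differed by 0.12, Sox2 by 0.04, Nanog by 0.01 and Klf4 by -0.01, all within the SD of 0.18 over all windows. Formative and primed genes (median -0.07, 1 of 7 above 0), neural crest genes (-0.09, 1 of 7) and neuroectoderm genes (-0.08, 3 of 9) had few tested members. Among the last, Sox21 was lowest with 1.36 in 4HT_G2 and 2.66 in EtOH_G2 (-0.51). Forkhead genes had a median of 0.05 with 10 of 16 above 0, from Foxf1 at -0.35 to Foxd4 at 0.35.

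Among signalling lists the Wnt targets had the lowest median, -0.11, with 3 of 10 above 0, from Lef1 at -0.30 to Cdx1 at 0.32. Nodal, TGF-beta and BMP targets had -0.01 (5 of 13), with Smad6, an inhibitory Smad, highest at 0.35, and FGF and MAPK feedback genes -0.02 (4 of 10), with Il17rd, a feedback inhibitor, lowest at -0.31. The p53 list had -0.02 (8 of 16), with Mdm2, the p53 ligase, highest at 0.28, and apoptosis regulators 0.03 (6 of 10). Chromatin repressors and remodellers had -0.06 (10 of 26), from Ehmt2, a histone H3K9 methyltransferase, at -0.33 to Uhrf1, a maintenance methylation factor, at 0.40. Ribosomal protein genes had the highest median, 0.05, with 16 of 26 above 0.

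**Figure D5:**
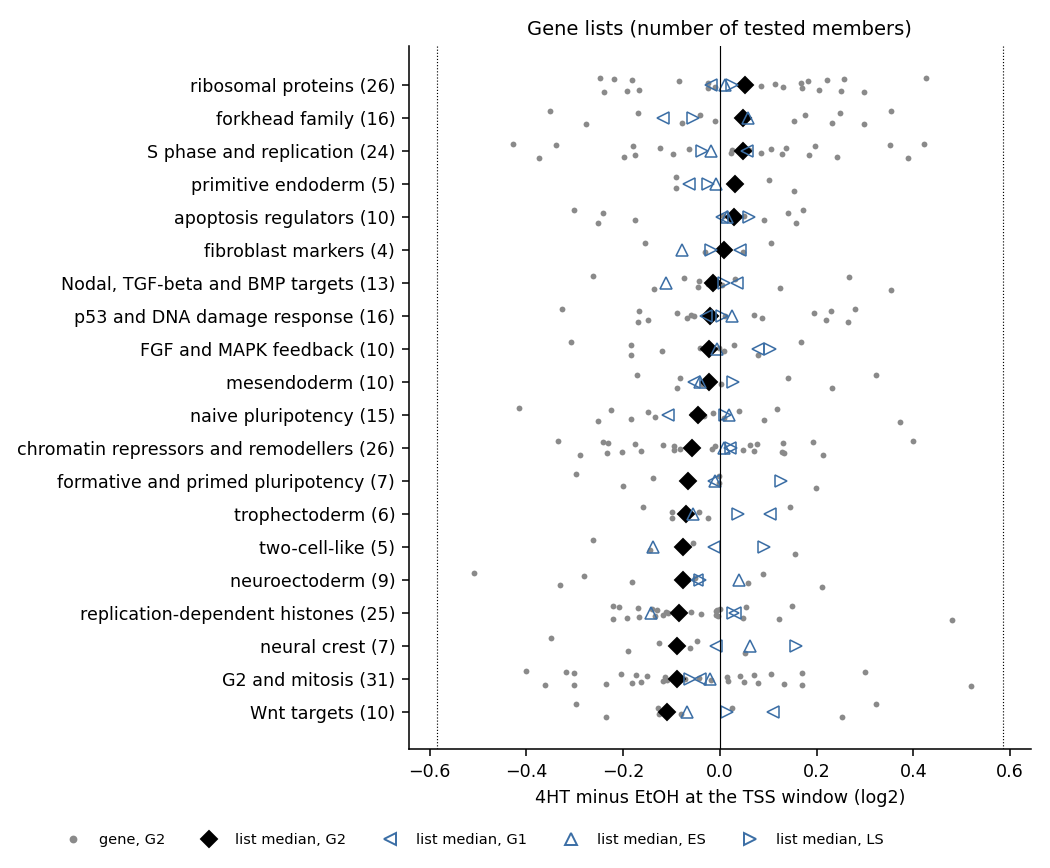
Difference between 4HT and EtOH (log2) at the TSS windows of the tested members of 20 gene lists, ordered by the G2 median. Grey points are genes in G2, diamonds the G2 medians (-0.11 to 0.05), open triangles the medians in G1, ES and LS, and dotted lines mark 1.5-fold, which no member passed in G2.

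Position along the genome was compared next. The medians of the windows by chromosome lay between -0.02 and 0.02 in G2, with an SD of 0.0110 over 20 chromosomes, against 0.0153 in G1, 0.0069 in ES and 0.0111 in LS. Over 216 bins of 10 Mb the SD of the medians was 0.0356 in G2, and 0.0351 to 0.0367 elsewhere. Of regions within 1 kb of a TSS, 14.4% were past 1.5-fold in either direction, against 23.4% from 1 to 10 kb, 23.0% from 10 to 100 kb and 24.3% beyond, with medians of 0.01, -0.00, 0.00 and 0.04. The chromosome 18 regions were left out of this count by distance.

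Forkhead letters were searched in the RefSeq promoters, from 250 bases before to 50 after the TSS, on both strands. The letters were TGTTTAC, the related TGTTTGT, which begins in the same way, and finally TGTTTAT. The first, TGTTTAC, stood in 3.65% of 32851 promoters, and at least 1 of the 3 in 13.7%. Of 9882 tested windows with a promoter in the table, 789 held at least 1, and their median G2 difference was -0.01 from that of the rest. The same distance was -0.00 in G1, -0.02 in ES and 0.01 in LS. Of the 789 windows 0 were past 1.5-fold, and of the others 34 (0.374%). Whether these shares differ was not tested. A window without these letters may still be bound, and no statement on FOXD3 binding is drawn from them.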

How the data were processed

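ATAC-seq libraries of sorted mESCs were analysed from 2 deposited tables. The authors' deposited signal is coverage that was read, from the values, as CPM averaged over bases with a read; the build was mm10, per the submitters' processing notes. The aligner, the coverage program and how libraries were pooled are not given in the sources used here. No column was left out; 34 repeated windows were dropped. The smallest value of a column was taken as 1 read and nan as no read.

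Windows carried RefSeq names (TSS sought 150 bp downstream of the window centre, with 500 bp tolerance, or 50 bp where the table gives no strand) for 26653. Tested intervals were read in all 8 columns with a mean level of at least 2 (regions) or 1.3 (windows), which leaves out intervals that lost all reads. The log2(signal + 0.1) understates folds of low intervals. Columns were centred with cyclic loess and fitted in limma 3.58.1 under R 4.3.3 with robust, trended moderation. The fit was tested on simulated data. p-values were adjusted over all intervals of a table (Benjamini-Hochberg).

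Named were all called intervals, the 12 windows and 6 regions furthest from 0 each way (mean G2 level at least 2 or 3, predicted genes left out), 4 one-column regions each way, and the highest and lowest member of a list. Other family members, a few other list members and the intervals of the closing section were named with their values seen. The members and lists were chosen with earlier results of these data known. Sequences are RefSeq's (GRCm38.p6). Alternatives were other pseudocounts, centring, filters, moderation and fits without a fraction.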

Additional observations from a re-analysis of the deposited data

Results flagged for a closer look

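The window of Gm13287 stands out because its treatment difference in G2 differed from that in the other fractions by 1.19 on the log2 scale (limma adjusted p = 0.0174), with differences of -0.06, -0.31 and -0.19 in G1, ES and LS. The window met the minimum mean level for the test only through its level in 4HT_G2. Its promoter is identical to those of Gm13285 and Gm13272. Where in the window the reads fall was not measured, and the part of read placement in the result was not tested.

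The windows of Gm13276 and Gm13277, in the same interferon zeta cluster, were not tested for want of a read in some EtOH columns, and they were picked after their values were seen. Gm13276 had levels of 4.599, 2.28, 2.75 and 2.60 with 4HT in G1, ES, LS and G2, against 0, 0, 1 and 1 with EtOH. Gm13277, whose window overlaps it, had the same 4HT levels in G1, ES and LS and 1.63 in G2, against 0, 0, 0 and 1 with EtOH. With 4HT the level of both was higher in each of the 4 fractions. Their promoters are identical, base for base, to that of Ifnz, whose window overlaps that of Gm13276. Ifnz went the other way in G2, with 1 in 4HT_G2 and 3.42 in EtOH_G2. The windows of Gm13276 and Gm13277 share positions 88785328 to 88787404, beyond the end of the Ifnz window at 88784481. Where in these windows the reads fall was not measured. Which copy a read came from is uncertain, and the part of read placement was not tested. Of 2494 windows that lacked a read in a column, 9 (0.361%) had every 4HT column above every EtOH column and 8 (0.321%) the reverse. Gm13276 and Gm13277 were the 2 of these whose mean levels were at least 2 apart. Among all 38053 windows, 294 had every 4HT column above every EtOH column, and more, 374, had the reverse.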

How the results depend on the processing

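No paired analysis was possible because the 2 libraries of each group are pooled in 1 column, and for the same reason no library could be left out. The number of windows called in G2 (2 with the settings of the report) was 1 with a pseudocount of 0.02, 0 without centring, without the filter on level, with the higher minimum and with plain moderation, and 6, 14 and 16 without the G1, ES or LS fraction, where 1 residual degree of freedom is left. Both windows of the report were among the calls in each of these last 3 fits. The count for the difference between G2 and the other fractions (1) was 2 with a pseudocount of 0.5, 0 without centring, without the filter, with the higher minimum and with plain moderation, and 9 and 12 without ES or LS. For regions the G2 count of 0 was 1 without ES and 1 without LS, and that of the difference was 2 without ES; the cause of these changes was not tested. The 57 windows past 1.5-fold were 5 past 2-fold, 1 with a pseudocount of 0.5, which shrinks all differences, 97 without centring and 27 with the higher minimum. The share of one-column regions held by EtOH was 68.1% at a level of at least 1.5 and 71.3% at 2. The number of lists above 0, the spread over chromosomes and the forkhead comparison stayed within their limits. No named window or region changed direction under any alternative, and 232 of 242 values for windows and 113 of 113 for regions kept their side of the threshold. Most of these intervals were picked as the furthest apart in the same G2 columns and were not called, so little change was to be seen. A call was lost in 7 values, all of them of the 2 called windows, and gained in 3 values of other windows. Fits in which a window was not tested gave no value. Of 60 list medians, 55 moved by less than their spread over the other fractions. Depth limits the weak intervals: 32.68% of the regions rest on 1 read in 4HT_G2 and 29.64% in EtOH_G2.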

Other observations

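Some other windows had small p-values in G2, and none passed the threshold. A window at the start of chromosome 9 (3013005 to 3018004), over no gene of the RefSeq table, had levels of 6.46 in 4HT_G2 and 2.75 in EtOH_G2 (log2 difference 1.21, limma adjusted p = 0.0972). It was higher with 4HT in the other fractions as well, with differences of 0.51 in G1, 0.65 in ES and 0.48 in LS, and its difference between G2 and these had a limma adjusted p of 0.999. A neighbour (3031950 to 3036949) had 1 in 4HT_G2 and 3.22 in EtOH_G2 (-0.98, limma adjusted p = 0.230). Gm21103 on chromosome 14 had 1 in 4HT_G2 and 4.01 in EtOH_G2 (-1.19, limma adjusted p = 0.0972). LOC115486763, within the imprinted Snhg14 transcript on chromosome 7, had 2.56 in 4HT_G2 and 1.07 in EtOH_G2 (0.90, limma adjusted p = 0.107), and Gm13007 had 2.47 and 1.12 (0.81, limma adjusted p = 0.107).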
